A study of Mus musculus with 6 samples.

Results

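The 10 genes described here, Hif1a, Egln3, Bnip3, Pdk1, Ankrd37, Vegfa, P4ha1, P4ha2, Ddit4 and Ndrg1, belong to the cell's response to low oxygen outside glycolysis. They were selected from 23359 gene symbols measured in mouse bone marrow libraries, partly on the values themselves: the high level of Bnip3 in 1 wild-type library, WT C, and its lower level in the knockout were known when the genes were chosen. All 10 were found, each on a single line of the table, and 9 of them reached a mean level of 1 FPKM and were tested, among 9916 genes in all. FPKM is the number of sequenced fragments per kilobase of transcript, scaled to 1000000 mapped fragments, so levels of different genes can be set beside each other.

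The series compared 3 libraries of Gab2 -/- bone marrow (NULL A, B and C) with 3 libraries of Gab2 +/+ bone marrow (WT A, B and C). GAB2 is a docking protein that links cytokine receptors, and the BCR-ABL1 oncoprotein, to downstream kinases and phosphatases, and the series title concerns transformation of myeloid and lymphoid cells by BCR-ABL1. Age, sex, strain, the kind of Gab2 allele and any oncogene, culture or sorting step were not given in the sources used here, and nothing says that the libraries came from separate animals. The p-values below therefore measure only the spread between these libraries, which may be technical. Gab2 itself measured 0.123, 0.145 and 0.203 FPKM in NULL A, B and C, against 3.33, 3.10 and 2.43 FPKM in WT libraries A, B and C, so the targeted gene matched the label in all 6 libraries.

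Several facts of the libraries touch every result. Estimated depth ran between 23.1 and 68.3 M fragments in NULL and between 17.8 and 53.7 M in WT. The tissue label was checked against marker genes: 15 B-lineage markers summed to between 3638 and 3825 FPKM in NULL and between 2299 and 2548 FPKM in WT, while 12 neutrophil markers summed to at most 0.736 FPKM in NULL and 0.620 FPKM in WT and 8 T and NK cell markers to at most 0.505 FPKM in NULL and 0.255 FPKM in WT. The sum over 12 endothelial and stromal markers, up to 25.6 FPKM in NULL and 11.7 FPKM in WT, was nearly all Pecam1. The 13 macrophage markers, Lyz2 being the highest, summed to between 3.59 and 4.97 FPKM in NULL and between 1.46 and 2.30 FPKM in WT. The 8 megakaryocyte markers summed to at most 1.25 FPKM in NULL and 0.364 FPKM in WT. The B-lineage list was thus the one of these lists at a high level, and 7 of the 12 neutrophil markers were below 0.05 FPKM in all 6 libraries. Within the B-lineage list genes moved in opposite directions. Il7r, Dntt and Rag1, genes of early B-cell stages, averaged 75.8 ± 9.54, 161 ± 5.003 and 7.01 ± 0.0900 FPKM in NULL and 10.6 ± 4.96, 33.4 ± 16.6 and 1.02 ± 0.676 FPKM in WT, while the later Cd22 averaged 1.74 ± 0.205 FPKM in NULL and 45.9 ± 23.1 FPKM in WT (SD, n = 3 each). In WT C, relative to WT A and B, Dntt (-1.29), Il7r (-1.29) and Rag1 (-0.93) were lower and Cd22 (1.13) was higher on the log2(FPKM + 1) scale. The part of this difference in B-cell stage markers in the results below was not tested. WT C stood apart from WT A and B in other transcripts too: its 17 erythroid markers summed to 91.5 FPKM, against 11.1 FPKM each in WT A and B and between 0.543 and 1.02 FPKM in NULL. Small RNA genes made up 31.4% of the summed FPKM of WT C, against 6.03% in WT A and 13.4% in WT B, and between 8.62% and 30.1% in NULL. In bulk RNA, fewer cells of a type and less RNA per cell cannot be told apart.

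When oxygen is plentiful, prolyl hydroxylases of the EGLN family mark the transcription factor subunit HIF-1alpha for destruction by the VHL ubiquitin ligase. When oxygen falls, HIF-1alpha persists, pairs with ARNT and binds short sites with the core ACGTG or GCGTG near its target genes. The targets shift metabolism from mitochondria to glycolysis, remodel matrix, call in vessels and restrain growth. Because control of HIF-1alpha is largely at the protein, the mRNA of Hif1a and the mRNAs of its targets can move apart. Marrow is known as a tissue of low oxygen, and HIF targets also respond to growth factor and nutrient signals.

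The proximal promoters of these genes show how unevenly that core site is spread over them. The sequences below run from 250 to 21 bases upstream of the RefSeq transcript start (230 bases, build GRCm38.p6) and are written 5′ to 3′ on the strand of the gene. Capitals mark ACGTG or GCGTG on either strand, where a match on the opposite strand reads CACGT or CACGC. The first 4 are the genes that stood highest in WT C or fell in NULL. Vegfa is shown because it moved the other way in NULL.
Bnip3, chr7:138909527-138909756, minus strand: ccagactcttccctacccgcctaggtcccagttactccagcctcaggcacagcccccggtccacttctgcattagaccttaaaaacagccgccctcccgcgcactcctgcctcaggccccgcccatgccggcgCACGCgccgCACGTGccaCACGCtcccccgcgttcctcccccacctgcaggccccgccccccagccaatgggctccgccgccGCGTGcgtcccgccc
Ankrd37, chr8:45999871-46000100, minus strand: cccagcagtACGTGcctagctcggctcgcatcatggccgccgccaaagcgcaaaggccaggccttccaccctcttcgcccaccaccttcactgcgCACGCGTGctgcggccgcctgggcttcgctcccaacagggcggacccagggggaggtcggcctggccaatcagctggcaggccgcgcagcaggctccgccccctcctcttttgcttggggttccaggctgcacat
Egln3, chr12:54203895-54204124, minus strand: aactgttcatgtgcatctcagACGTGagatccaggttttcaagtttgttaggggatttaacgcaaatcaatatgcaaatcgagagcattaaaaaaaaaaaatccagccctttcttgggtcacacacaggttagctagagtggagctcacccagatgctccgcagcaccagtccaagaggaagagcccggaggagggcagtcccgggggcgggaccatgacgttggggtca
Pdk1, chr2:71872974-71873203, plus strand: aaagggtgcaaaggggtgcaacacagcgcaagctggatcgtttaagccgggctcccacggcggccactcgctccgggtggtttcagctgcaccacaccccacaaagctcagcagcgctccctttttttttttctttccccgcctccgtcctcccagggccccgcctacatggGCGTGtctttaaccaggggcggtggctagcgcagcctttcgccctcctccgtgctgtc
Vegfa, chr17:46032398-46032627, minus strand: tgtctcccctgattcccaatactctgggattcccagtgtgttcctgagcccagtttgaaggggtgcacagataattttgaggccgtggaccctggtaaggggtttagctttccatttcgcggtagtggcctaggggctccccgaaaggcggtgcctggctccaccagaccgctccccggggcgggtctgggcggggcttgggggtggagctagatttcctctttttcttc

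Bnip3 held 5 matches, with the palindrome CACGTG counted once on each strand, Ankrd37 held 3, Egln3 and Pdk1 held 1 each and Vegfa held 0 in this window. Of the promoters not printed, Hif1a and P4ha2 held 3 each and P4ha1 and Ddit4 held 2 each, so 8 of the 9 genes in the RefSeq promoter table had a match. Ndrg1 had no entry. The core is short and common: 36% of all 27025 promoter windows of this length and 54.8% of the 7972 windows of tested genes held it. Of the 21 glycolysis genes in that table, 15 held it (71.4%). For the other known HIF targets the check is void, because 29 of 45 (64.4%) had an entry; 17 of those 29 held the core (58.6%). A match is a run of letters and not a binding site, and its absence from this window says nothing about sites elsewhere. The Ankrd37 window overlapped no annotated exon, although it lies inside the outermost bounds of the gene in GENCODE vM21.

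**Figure D1:**
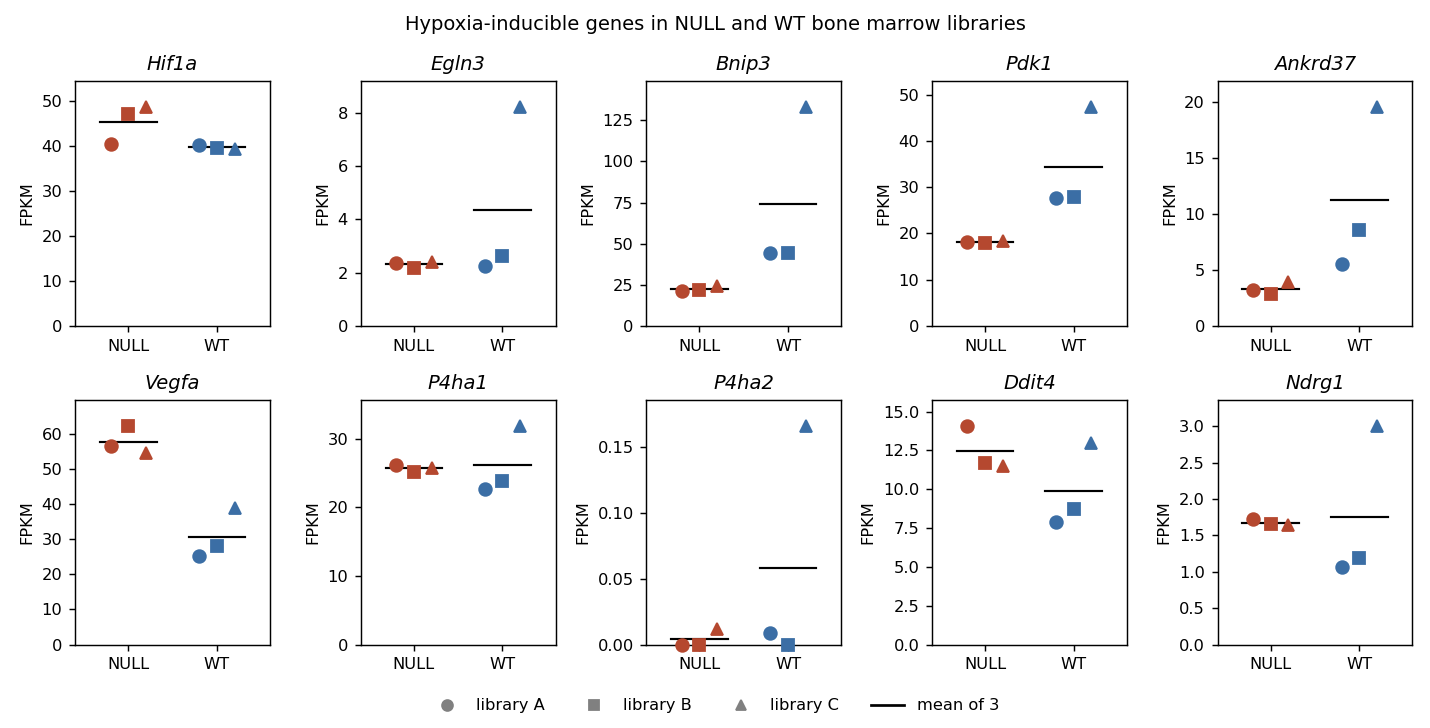
FPKM of the 10 genes (vertical axes, each starting at 0) in the 3 NULL libraries (red, left) and the 3 WT libraries (blue, right) of Gab2 -/- and Gab2 +/+ bone marrow. Circles, squares and triangles are libraries A, B and C and the line is the mean of 3. The WT C triangle is above WT A and B in every panel except Hif1a. For Bnip3, Pdk1 and Ankrd37 the NULL libraries lie below all 3 WT libraries, as for 4468 of all 9916 tested genes.

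The oxygen-sensing pair behaved differently from each other. Hif1a, the oxygen-regulated subunit on chromosome 12 (73901375 to 73947530, plus strand), measured 40.4, 47.2 and 48.7 FPKM in NULL A, B and C, against 40.2, 39.7 and 39.3 FPKM in WT libraries A, B and C. NULL lay just above WT without overlap, NULL A by little, and WT C was the lowest of the 6 libraries. The difference of 0.18 on the log2(FPKM + 1) scale (SE 0.0810) did not pass the limma test across all genes (Benjamini-Hochberg adjusted p = 0.0788), nor without WT C (0.18, adjusted p = 0.136). It passed under 3 of 4 rescalings of the libraries, with changes between 0.34 and 0.56, and without NULL A (0.26, adjusted p = 0.0109). Of 5896 exonic bases, 330 are shared with the antisense transcript Gm15283 and 148 with Gm49321 on the same strand, whose reads cannot be told apart there.

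Egln3 encodes the prolyl hydroxylase PHD3, which is itself induced by HIF and feeds back on it. The gene (chromosome 12, 54178981 to 54203860, minus strand) measured 2.38, 2.17 and 2.39 FPKM in NULL A, B and C, against 2.25, 2.63 and 8.21 FPKM in WT libraries A, B and C. All libraries but WT C were alike, and WT C was high, 3.36 times the mean of WT A and B. NULL overlapped WT, and the limma log2 change of -0.53 (SE 0.354, adjusted p = 0.224) shrank to -0.05 without WT C (SE 0.0837, adjusted p = 0.605).

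On the log2(FPKM + 1) scale Bnip3 showed the largest WT C difference of the 9 tested genes, although Egln3 had the larger ratio of FPKM, and Bnip3 was also lower in NULL. BNIP3 sits on the outer mitochondrial membrane and directs mitochondria to autophagy. The gene (chromosome 7, 138890836 to 138909519, minus strand) measured 21.1, 21.7 and 24.4 FPKM in NULL A, B and C, against 44.6, 44.3 and 133 FPKM in WT libraries A, B and C. The 3 NULL libraries were close together and below all WT libraries, WT A and B were nearly equal, and WT C was 2.99 times their mean. Bnip3 fell by 1.48 on the log2 scale in NULL (SE 0.385, limma adjusted p = 0.0106), and by 0.96 against WT A and B alone (SE 0.0801, adjusted p = 0.000126), where NULL held 50.4% of the mean FPKM. Leaving out WT C thus made both the change and its SE smaller, and the call stood in both fits. Of the 2265 exonic bases of Bnip3, 504 overlap the antisense transcript Gm45507; the library kit keeps strand, but no source used here gives the strand setting of the counting.

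Pdk1 followed the same order with smaller steps. Pyruvate dehydrogenase kinase 1 switches off the enzyme complex that feeds pyruvate into the mitochondrial citric acid cycle. The gene (chromosome 2, 71873224 to 71903858, plus strand) measured 18.1, 17.9 and 18.4 FPKM in NULL A, B and C, against 27.6, 27.9 and 47.2 FPKM in WT libraries A, B and C. NULL lay below WT without overlap and WT C was 1.70 times the mean of WT A and B. Pdk1 fell in NULL by 0.83 (SE 0.190, limma adjusted p = 0.00559) and by 0.59 without WT C (SE 0.0618, adjusted p = 0.00027). The call over all 6 libraries was lost when the libraries were scaled to equal FPKM sums (-0.56, adjusted p = 0.0923).

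Ankrd37 encodes a small ankyrin-repeat protein known as a HIF-1 target, whose function is less well described. The gene (chromosome 8, 45996902 to 46005707, minus strand) measured 3.23, 2.82 and 3.91 FPKM in NULL A, B and C, against 5.58, 8.60 and 19.5 FPKM in WT libraries A, B and C. The groups did not overlap; here WT A and B also differed from each other, by 1.54 times, and WT C was 2.75 times their mean. Ankrd37 fell in NULL by 1.34 (SE 0.365, limma adjusted p = 0.0128) and by 0.89 without WT C (SE 0.175, adjusted p = 0.00385). Its exons share 349 bases with Lrp2bp and 57 with Ufsp2 on the opposite strand. The estimated fragments behind a value were few, 51 in NULL B and 340 in WT C.

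Bnip3 and Ankrd37 lost their calls over all 6 libraries under robust moderation of the variances (adjusted p = 0.0551 and 0.0556), a method that lets a gene with an unusual spread keep it. Both calls stood in all 6 fits that left out a single library.

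Vegfa ran against these genes. It encodes the vascular endothelial growth factor, the secreted signal that draws in vessels. The gene (chromosome 17, 46016993 to 46032369, minus strand) measured 56.5, 62.2 and 54.4 FPKM in NULL A, B and C, against 25.3, 27.9 and 38.8 FPKM in WT libraries A, B and C. Every NULL library exceeded every WT library, and within WT the C library was again the highest, at 1.46 times the mean of A and B. Vegfa rose in NULL by 0.91 (SE 0.149, limma adjusted p = 0.00106) and by 1.09 without WT C (SE 0.0858, adjusted p = 0.000105), that is to 2.17 times the mean FPKM of WT A and B. The call held under all 18 alternatives, with log2 changes between 0.79 and 1.28. It was the one gene of the 9 called higher over all 6 libraries.

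The collagen prolyl 4-hydroxylase subunits P4ha1 and P4ha2, which modify collagen so that its helix is stable, were far apart in level. P4ha1 (chromosome 10, 59323296 to 59373304, plus strand) measured 26.2, 25.2 and 25.8 FPKM in NULL A, B and C, against 22.6, 23.9 and 31.9 FPKM in WT libraries A, B and C. NULL lay between WT A and B below and WT C above, and the limma log2 change was -0.01 (SE 0.121, adjusted p = 0.964), and 0.14 without WT C (SE 0.0651, adjusted p = 0.0976). P4ha2 (chromosome 11, 54100095 to 54131665, plus strand) was listed at 0, 0 and 0.0118 FPKM in NULL A, B and C, against 0.00860, 0 and 0.166 FPKM in WT libraries A, B and C, and was too low to test. The WT C value stands for about 11 fragments and every other value for at most 1, so P4ha2 carried next to no signal outside WT C.

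For Ddit4 and Ndrg1, which act in growth and stress, WT C lay among or above the NULL libraries while WT A and B lay below them. DDIT4, also called REDD1, restrains the growth kinase mTORC1. Ddit4 (chromosome 10, 59949669 to 59951834, minus strand) measured 14.1, 11.7 and 11.5 FPKM in NULL A, B and C, against 7.92, 8.69 and 13.0 FPKM in WT libraries A, B and C. WT C lay among the NULL libraries, and the limma log2 change of 0.33 (SE 0.167, adjusted p = 0.118) became 0.53 without WT C (SE 0.101, adjusted p = 0.00346), where the groups did not overlap. With all 6 libraries kept it passed under 3 of 4 rescalings.

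Ndrg1 is known as a stress-responsive gene induced by low oxygen and by metals. The gene (chromosome 15, 66929318 to 66969640, minus strand) measured 1.72, 1.65 and 1.65 FPKM in NULL A, B and C, against 1.07, 1.19 and 3.01 FPKM in WT libraries A, B and C. The NULL libraries agreed closely and WT lay on both sides of them. The limma log2 change was 0.02 (SE 0.233, adjusted p = 0.933) with all 6 libraries and 0.33 without WT C (SE 0.0747, adjusted p = 0.00723). Its sign depended on the WT libraries kept: -0.15 without WT A and -0.11 without WT B. Ndrg1 exons share 419 bases with the antisense transcript Gm17035 and 137 with Gm2895.

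**Figure D2:**
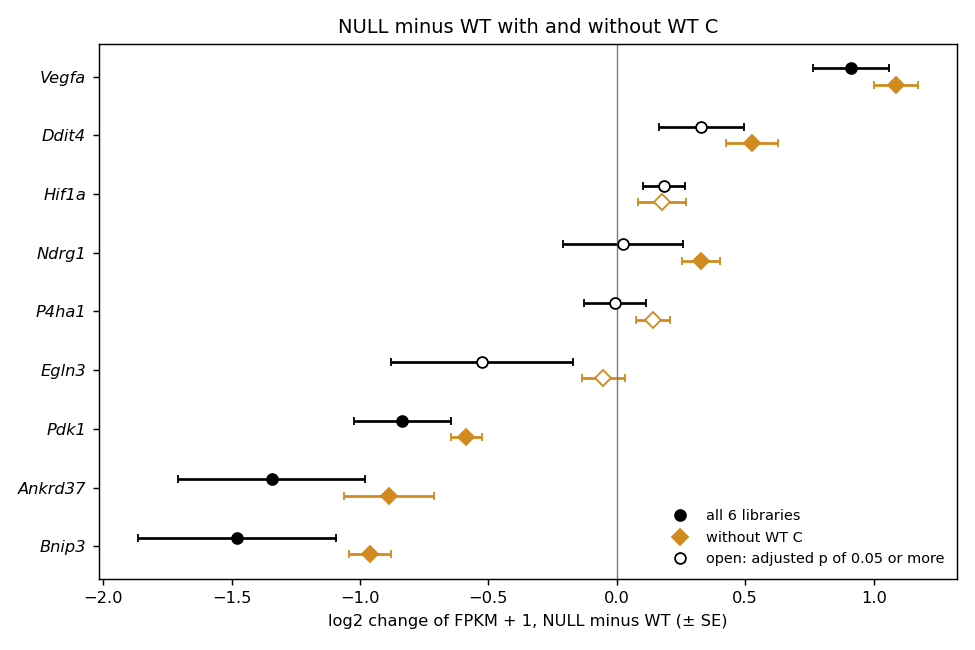
Log2 change of FPKM + 1, NULL minus WT, for the 9 tested genes (horizontal axis, ± SE from the limma fit), with all 6 libraries (black circles) and without WT C (orange diamonds). Filled symbols had an adjusted p below 0.05: Bnip3, Ankrd37 and Pdk1 are filled and negative in both fits, Vegfa filled and positive in both, and Ddit4 and Ndrg1 filled without WT C.

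Counted together, 3 of the 9 tested genes were lower and 1 was higher in NULL over all 6 libraries. Across all 9916 tested genes 42% were called lower and 23.3% higher, so the share of the hypoxia-inducible genes that was called was no larger than that of genes in general. Without WT C, 3 of the 9 were lower and 3 higher, against 41.1% and 24% of all tested genes. All NULL libraries lay below all WT libraries for 3 of the 9 genes and above them for 2. Among all 9916 tested genes this held for 4468 and 2577, so a lack of overlap was common. The median log2 change of the 9 genes was -0.01 with all 6 libraries and 0.14 without WT C, beside -0.13 and -0.12 for all tested genes. Since Bnip3 in WT C and in NULL was known when the genes were chosen, these calls describe the genes and are no independent evidence of a direction. In the fit without WT C the changes ran between -0.96 for Bnip3 and 1.09 for Vegfa, so the 10 genes did not move as a block between the genotypes.

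The order of the levels differed between the genotypes accordingly. In NULL it ran Vegfa (57.7 ± 4.03 FPKM), Hif1a (45.4 ± 4.41), P4ha1 (25.7 ± 0.514), Bnip3 (22.4 ± 1.72), Pdk1 (18.2 ± 0.258), Ddit4 (12.4 ± 1.43), Ankrd37 (3.32 ± 0.549), Egln3 (2.31 ± 0.127) and Ndrg1 (1.67 ± 0.0426; mean FPKM ± SD, n = 3 each). In that order the ranges of neighbouring genes did not overlap in NULL. The mean FPKM of WT A and B ran Bnip3 (44.5), Hif1a (40.0), Pdk1 (27.7), Vegfa (26.6), P4ha1 (23.2), Ddit4 (8.31), Ankrd37 (7.09), Egln3 (2.44) and Ndrg1 (1.13). In WT A and B the ranges of Pdk1 and Vegfa overlapped, as did those of Ddit4 and Ankrd37.

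In WT C the genes shared a direction that they did not share between the genotypes. As a description of a single library, with no test, 8 of the 9 were higher in WT C than the mean of WT A and B on the log2(FPKM + 1) scale. That was so for 5067 of all 9916 tested genes. By at least 1 on that scale, 3 of the 9 were higher, a level reached by 0.787% of all tested genes (78 of 9916). Those 3 were Bnip3 (1.56), Egln3 (1.42) and Ankrd37 (1.37). Ndrg1 (0.91), Pdk1 (0.75), Ddit4 (0.59), Vegfa (0.53) and P4ha1 (0.44) followed, and Hif1a stood at -0.02. Adding 1 FPKM shrinks the difference of low genes: as plain ratios of FPKM the order was Egln3 (3.36), Bnip3 (2.99), Ankrd37 (2.75) and Ndrg1 (2.66). By that measure 4 of the 9 were at least 2-fold higher in WT C, and no such count was made over all genes. Ranked among the 9916 genes, Bnip3 was at place 27, Egln3 at 32, Ankrd37 at 37, Ndrg1 at 96, Pdk1 at 138, Ddit4 at 233, Vegfa at 299, P4ha1 at 449 and Hif1a at 5558. The median was 0.75 for the 9 genes and 0.0050 for all tested genes. The genes were partly chosen on WT C, so their place there is not a finding about them.

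The transcript of the HIF subunit itself thus stood near the centre of the WT C distribution, and the other 8 genes between places 27 and 449. Scaling to equal FPKM sums lowered all of WT C, with a median of -0.46 over all tested genes. There Vegfa (-0.0029) and P4ha1 (-0.088) lay just below 0, Bnip3 was at 1.02, and 8 of the 9 genes still lay above the median of all genes. Each of the other 5 libraries was also set against the mean of the other libraries of its own group. There 0 of the 9 genes were higher by at least 1, although between 11 and 57 genes of the whole table were. For WT A and B that mean includes WT C, which lowers their differences. The 0 in WT A and B therefore says nothing about these libraries.

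**Figure D3:**
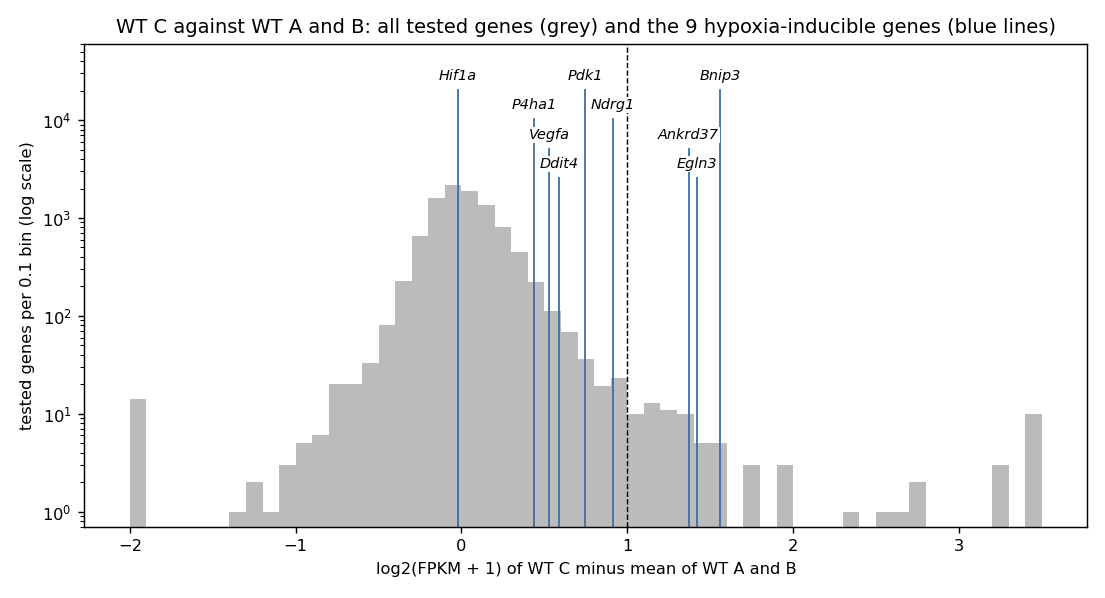
Number of tested genes (vertical axis, log scale) by the log2(FPKM + 1) of WT C minus the mean of WT A and B (horizontal axis, bins of 0.1, genes beyond -2.0 and 3.5 counted in the end bins). Blue lines mark the 9 hypoxia-inducible genes and the dashed line a difference of 1: Egln3, Ankrd37 and Bnip3 lie to its right and Hif1a at -0.02.

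Other transcripts were also high in WT C. Outside predicted genes and small RNAs, the largest WT C differences belonged to the lactate and pyruvate transporter Slc16a3 (3.27), the beta-globin copies Hbb-b2 (3.26), Beta-s (2.80) and Hbb-b1 (2.77), the mitochondrial adenylate kinase Ak4 (2.56), the histone gene Hist1h2ak (1.92), Dpm3 (1.78), Amd1 (1.77), Snhg9 (1.76) and the aldolase Aldoc (1.59). Amd1 was near 0 in WT B and Snhg9 listed at 0 there, so their differences rest on WT B as well as on WT C. Reads of the globin copies cannot be assigned with certainty. Of 61 tested histone cluster genes, 60 were higher in WT C and 21 by at least 1, with a median of 0.82. Of the 17 erythroid markers found, 8 were below 0.05 FPKM in all 6 libraries and 3 reached a mean of 1 FPKM, Hbb-b1 being the highest. The part of the erythroid, histone and small RNA transcripts in the WT C values of the hypoxia-inducible genes was not tested.

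The 5 genes with the profile nearest to that of Bnip3 were picked by root mean square distance of centred log2(FPKM + 1) values over 6 libraries. They were the endoribonuclease gene Endou (0.154), the aldolase Aldoa (0.169), the pyruvate kinase Pkm (0.189), the glucose transporter Slc2a1 (0.193) and Ankrd37 (0.196). Aldoa measured 86.9, 75.8 and 81.5 FPKM in NULL A, B and C, against 168.9, 193 and 409 FPKM in WT libraries A, B and C. The order, with NULL lowest and WT C highest, is that of Bnip3, which follows from the way Aldoa was picked.

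As a list, the oxygen-sensing machinery around HIF showed little of the WT C pattern. Of its 16 tested genes, which include Hif1a and Egln3, 1 stood at least 1 higher in WT C, namely Egln3. Above 0 were 9 of the 16, beside 5067 of all 9916 tested genes, and the median was 0.04. Between the genotypes 4 were called higher and 6 lower in NULL over all 6 libraries, and 3 higher and 6 lower without WT C. These shares lay near the 23.3% higher and 42% lower of all tested genes (24% and 41.1% without WT C). Tceb1, the elongin C of the VHL ligase, averaged 22.1 ± 2.79 FPKM in NULL and 43.4 ± 3.15 FPKM in WT (SD, n = 3 each), a limma log2 change of -0.95 (adjusted p = 0.000147). Cul2, the cullin of the same ligase, fell by 0.84 (adjusted p = 0.00011), and Cited2, which competes with HIF for its coactivators, by 0.86 (adjusted p = 0.000473). Egln1, the main prolyl hydroxylase that senses oxygen, averaged 7.40 ± 0.238 FPKM in NULL and 12.8 ± 3.68 FPKM in WT. It fell by 0.69 (limma adjusted p = 0.00704), and by 0.48 without WT C (adjusted p = 0.000771). Its WT C difference of 0.63 was above that of Ddit4 (0.59). The count of lower genes was 1 with equal FPKM sums, beside 1003 of all tested genes. That of higher genes was 8 with equal sums of all but the small RNA genes, beside 4475. At an adjusted p of 0.01 it was 2, beside 1757.

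Other known HIF targets outside glycolysis were counted in the same fits. Of 45 listed, 26 were tested. Among those 26, 13 were called lower and 6 higher in NULL over all 6 libraries, and 13 lower and 7 higher without WT C, with medians of -0.33 and -0.17. All tested genes stood at 42% lower and 23.3% higher, and at 41.1% and 24% without WT C, so these shares were near those of genes in general. With equal FPKM sums, counted with or without small RNA genes, 6 were lower, beside 1003 and 2047 of all tested genes. In WT C 21 of the 26 were above 0, beside 5067 of all 9916 tested genes, and their median was 0.45. At least 1 higher were 3 of the 26, beside 78 of all 9916: Bnip3l (1.17), the mitophagy relative of Bnip3, the clock-linked repressor Bhlhe40 (1.14) and the cytokine Mif (1.04).

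Fam162a, a mitochondrial protein linked to cell death under low oxygen, measured 26.4, 23.9 and 28.8 FPKM in NULL A, B and C, against 67.8, 70.7 and 126 FPKM in WT libraries A, B and C. It repeated the order of Bnip3, and fell in NULL by 1.65 (limma adjusted p = 0.000411) with -1.36 without WT C (adjusted p = 7e-05). Mif measured 148.2, 93.2 and 109.8 FPKM in NULL A, B and C, against 207, 237 and 458 FPKM in WT libraries A, B and C, a fall of 1.29 (adjusted p = 0.00627). Bnip3l followed Egln3 rather than Bnip3, with 21.8, 25.8 and 23.6 FPKM in NULL A, B and C, against 21.1, 19.9 and 47.2 FPKM in WT libraries A, B and C: WT C alone was high, and the change in NULL was -0.19 (adjusted p = 0.593) with all 6 libraries and 0.20 without WT C (adjusted p = 0.0805), so its sign rested on WT C.

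Targets that went the other way, or ignored WT C, stood beside these. Nt5e, the ecto-enzyme CD73 that makes extracellular adenosine, measured 4.37, 3.65 and 4.89 FPKM in NULL A, B and C, against 0.245, 0.226 and 0.128 FPKM in WT libraries A, B and C. NULL was far above WT, as with Vegfa, and Nt5e rose by 2.14 (limma adjusted p = 1.2e-05). The carbonic anhydrase Car12 averaged 1.65 ± 0.174 FPKM in NULL and 6.66 ± 0.657 FPKM in WT and fell by 1.53 (adjusted p = 1.8e-05), with a WT C difference of 0.10. Named after their values were seen, the lipid droplet protein Plin2 (0.85, adjusted p = 6.8e-05) and the chemokine receptor Cxcr4 (0.80, adjusted p = 0.000174) also rose in NULL, with WT C differences of 0.06 and -0.25.

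**Figure D4:**
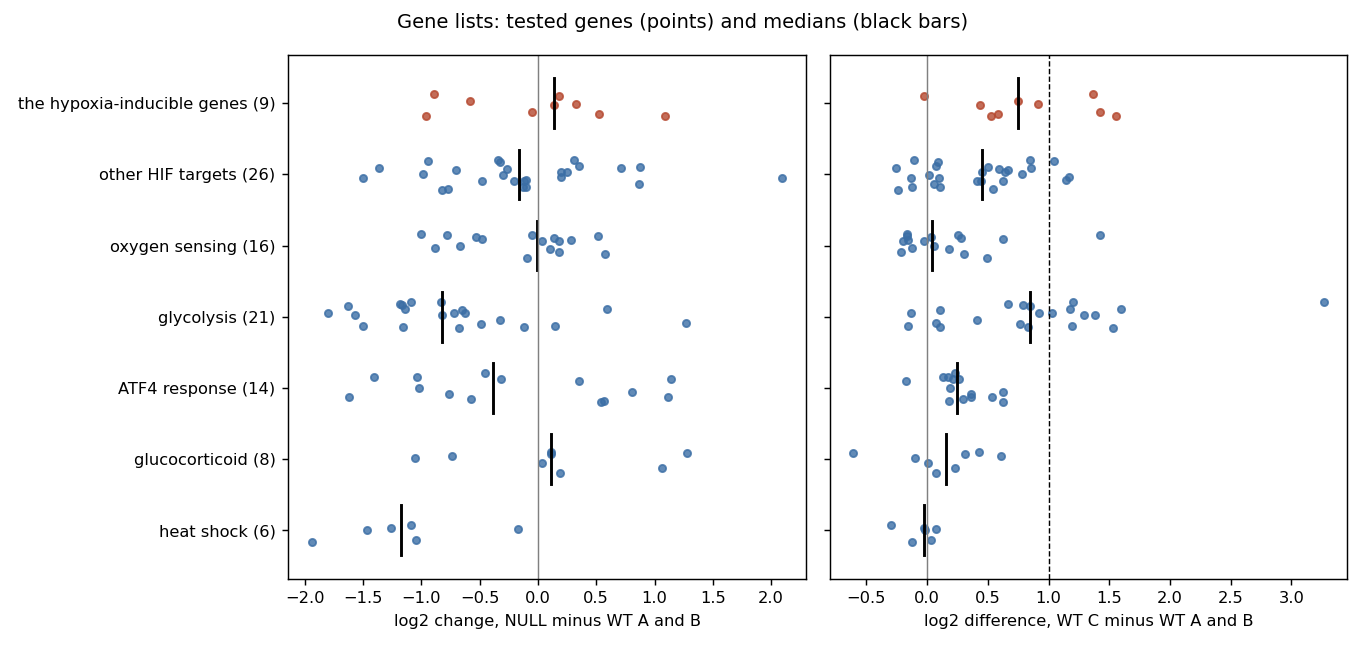
Tested genes (points) and medians (black bars) of 7 gene lists on the log2(FPKM + 1) scale: NULL minus WT A and B (left) and WT C minus the mean of WT A and B (right, dashed line at 1), with the number tested in brackets. The hypoxia-inducible genes (red), the other HIF targets and glycolysis lie to the right in WT C with medians of 0.75, 0.45 and 0.85, while the heat shock median is -0.02.

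Glycolysis genes shared both movements. Of 21 tested, 16 were lower and 2 higher in NULL over all 6 libraries (17 and 2 without WT C), beside 42% lower and 23.3% higher among all tested genes (41.1% and 24% without WT C). In WT C 19 were above 0 and 9 at least 1 higher, beside 5067 and 78 of all 9916 tested genes. Their WT C median was 0.85. The count of higher genes was 1 with equal FPKM sums, at an adjusted p of 0.01 and without WT B or any single NULL library. All genes called higher lay between 1757 and 2130 in these settings, instead of 2311. The lactate dehydrogenase gene Ldha measured 182.7, 140.8 and 175 FPKM in NULL A, B and C, against 558, 598 and 1096 FPKM in WT libraries A, B and C. The glucose transporter Slc2a1 measured 4.80, 4.86 and 4.32 FPKM in NULL A, B and C, against 7.34, 8.84 and 25.1 FPKM in WT libraries A, B and C. Among the others named by the same rule, Tpi1, Pgam1 and Pgk1 fell in NULL with changes between -2.03 and -1.90, while Aldoc, at 9.36 ± 1.09 FPKM in NULL and 10.4 ± 7.95 FPKM in WT, was called higher only once WT C was left out (0.60, adjusted p = 0.00164).

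Stress programmes that share some of these genes were counted in the same way. Ddit4 and Vegfa also answer to the amino acid stress factor ATF4, and Ddit4 to glucocorticoids. Of 14 tested ATF4 response genes 5 were higher and 8 lower in NULL, beside 23.3% and 42% of all tested genes. In WT C 13 of the 14 were above 0, beside 5067 of all 9916 tested genes, and 0 were at least 1 higher. Their WT C median was 0.25, against 0.0050 for all tested genes. With equal FPKM sums 4 were lower, beside 1003 of all tested genes. Under a filter at 5 FPKM 1 was higher, beside 1364 of all genes. Asparagine synthetase, Asns, averaged 16.0 ± 2.30 FPKM in NULL and 55.9 ± 8.54 FPKM in WT and fell by 1.74 (limma adjusted p = 4.1e-05). Psat1, Slc7a5 and Mthfd2 also fell, with changes of -1.45, -1.10 and -1.08. Asns and these genes repeated the order of Bnip3, with NULL lowest and WT C highest. Their WT C differences were smaller, between 0.13 and 0.36. The 5 ATF4 response genes called higher, named after their values were seen, were Ddit3 (1.07), Atf3 (0.94), Chac1 (0.60), Sesn2 (0.50) and Atf5 (0.41).

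Of 8 tested glucocorticoid targets 2 were higher and 2 lower in NULL, beside 23.3% and 42% of all tested genes, and 0 were at least 1 higher in WT C. The count of higher genes was 4 with equal sums of all but the small RNA genes, beside 4475 of all genes. Under a filter at 5 FPKM it was 1, beside 1364. Tsc22d3 averaged 25.0 ± 0.411 FPKM in NULL and 12.1 ± 1.25 FPKM in WT (0.99, limma adjusted p = 4.5e-05) and Sgk1 averaged 5.04 ± 0.473 FPKM in NULL and 1.22 ± 0.586 FPKM in WT (1.48, adjusted p = 0.000269). Fkbp5 and Mt1 fell, with changes of -1.02 and -0.94. Of 10 heat shock genes 6 were tested, and those 6 were called lower in NULL over all 6 libraries (Hspd1 -1.90, Hspe1 -1.46, Hsp90aa1 -1.25 and Hspa8 -1.06 on the log2 scale). Without WT C 5 of them were. Among all tested genes 42% were lower, and 41.1% without WT C. The WT C median of the 6 heat shock genes was -0.02, and 2 of the 6 lay above 0, beside 5067 of all 9916 tested genes. The inducible Hspa1a and Hspa1b and the cochaperone Bag3 were too low to test and stood the other way, Hspa1a at 0.307 ± 0.0241 FPKM in NULL and 0.0950 ± 0.0374 FPKM in WT (SD, n = 3 each). With no filter on low values 3 heat shock genes were called higher, beside 3039 of all genes. Among the tested genes a fall in NULL did not go with a high WT C value in every list. These lists were chosen with earlier results of the data known and overlap in part, and no list was tested as a set.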

How the data were processed

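RNA of mouse bone marrow was measured in 6 libraries, 3 NULL (Gab2 -/-) and 3 WT (Gab2 +/+), grouped and lettered by their titles. The authors deposited FPKM for each gene symbol. Per the labels' protocols the libraries were made with a kit that keeps strand and sequenced as paired ends. The submitters' processing notes name Bowtie and Cufflinks, with the builds mm10 and GRCm38. Versions, roles, annotation, strand setting and scaling are not given in the sources that were used.

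The table held 23848 lines; of 256 repeated symbols the line with the highest mean was kept. FPKM are not counts, so limma 3.58.1 in R 4.3.3 was run on log2(FPKM + 1) for the 9916 genes averaging 1 FPKM or more. Variances were moderated along a trend. The p-values were two-sided and adjusted by Benjamini-Hochberg over all 9916 genes, with a threshold of 0.05. Changes on this scale understate those of low genes. The steps were tested on simulated data. The hypoxia-inducible genes and all lists were chosen with earlier results of these data known. All 10 genes are named. From each list up to 4 called genes with the largest change and up to 4 with the largest WT C difference of at least 1 are named, with the 10 largest WT C differences overall and the 5 profiles nearest to Bnip3. Gene positions come from GENCODE vM21 on GRCm38. Depth was estimated from the steps between low FPKM values and supports no counting interval. Alternatives covered pseudocounts, filters, scaling, moderation, a replicate block, repeated symbols, thresholds and leaving out each library; counts for the lists other than the HIF targets and for all genes were added after seeing the data.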

Additional observations from a re-analysis of the deposited data

How the results depend on the processing

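The counts of called genes depended on scaling and on WT C (larger RNAs: all but the small RNA genes). Of the 9 tested genes 3 were lower in NULL, but 1 under robust moderation and 1 at an adjusted p of 0.01. All genes called lower were 4168, but 4172 under robust moderation and 3377 at 0.01. Of the 9, 1 was higher, but 3 after quantile scaling, 3 after median-of-ratios factors and 4 with equal sums of the larger RNAs. All genes called higher rose there too, from 2311 to 2825, 3143 and 4475. Without single libraries between 1 and 3 of the 9 were higher. The count was 3 without WT C and 2 without NULL A, beside 2378 and 2130 of all tested genes. Other HIF targets called lower were 6 under either scaling to equal sums, instead of 13, beside 1003 and 2047 of all tested genes instead of 4168. In WT C, 3 of the 9 genes were higher by at least 1 on the log2(FPKM + 1) scale. After scaling to equal FPKM sums 1 was, beside 28 of all tested genes. With a pseudocount of 0.1 the count was 4, Ndrg1 being the fourth, beside 119 of all tested genes. At 1.5-fold it was 6, and no count over all tested genes was made at that threshold. Of the other HIF targets 0 were higher by at least 1 after scaling to equal FPKM sums, instead of 3. The count was 1 with equal sums of the larger RNAs, 1 against the higher of WT A and B and 10 at 1.5-fold, again without a count over all genes. It lay between 1 (without WT A) and 3 without single WT libraries.

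The median change of all genes, -0.13 on the deposited scale, turned to 0.0098 after median-of-ratios factors, 0.11 after scaling to equal FPKM sums and 0.20 with equal sums of the larger RNAs. All genes called split into 2311 higher and 4168 lower on the deposited scale, 3143 and 3242 after median-of-ratios factors, 2825 and 3269 after quantile scaling, 2023 and 1003 after scaling to equal FPKM sums and 4475 and 2047 with equal sums of the larger RNAs. Under a filter at 5 FPKM, 1364 were higher. P4ha1 turned to 0.28 after quantile scaling, 0.15 after median-of-ratios factors and 0.27 and 0.36 with equal sums of all and of larger RNAs (adjusted p = 0.0101 in the last), and lay between -0.10 and 0.14 without single libraries. Ndrg1 turned to -0.0057 with a pseudocount of 5 and -0.094 after quantile scaling, and lay between -0.15 and 0.33 without single libraries. The causes were not tested. Egln3 and Vegfa kept their direction and their side of the threshold in all their alternatives.

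With the letter as a replicate block, 3 of the 9 genes were lower and 1 higher, as without it, and 1 glycolysis gene was higher instead of 2. All genes called were 2050 higher and 3794 lower there. Same-letter libraries correlated at 0.0735 (A), 0.355 (B) and 0.133 (C) in their deviations from the group means, each best with its own letter, and the labels do not say that letters mark pairs. The 3 libraries a group and unknown read counts limit the precision, and genes near 1 FPKM such as Ndrg1 rest on as few as 83 estimated fragments.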
